A study of Mus musculus with 16 samples.

Results

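The enzymes described here break down, make or interconvert amino acids, and their transcripts were measured in the kidneys of mice lacking the peptide transporter PEPT2. The list held 58 genes, chosen by name for their place in 6 pathway groups of kidney amino acid metabolism, and 30 of them could be tested among 6191 genes tested in all. The tissue was the whole right kidney of 4 male Pept2-/- mice, aged 88 (±2) days, hybridised against 1 RNA pool made from the right kidneys of 5 wild-type (Pept2+/+) mice. Both genotypes came from Pept2+/- breeding on a mixed C57BL/6 and 129Sv background, and single wild-type kidneys were not hybridised. Each knockout RNA went onto 4 two-colour spotted cDNA arrays, 2 with it in channel 1 and 2 with the dyes exchanged. The array values are log2 ratios, so they give differences between knockout and pool and no expression levels.

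The proximal tubule takes amino acids and small peptides back from the filtrate, and its cells degrade, convert or re-export what they take up. The kidney is known as the main source of circulating arginine, which it makes from citrulline through argininosuccinate synthase and lyase, and it makes guanidinoacetate, the precursor of creatine. It also cleaves glycine in mitochondria, makes serine, oxidises proline and tyrosine, and frees ammonium from glutamine and glutamate. PEPT2, the product of Slc15a2, imports dipeptides and tripeptides across the brush border, where they are a further source of amino acids for these enzymes.

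Slc15a2 itself was lower in every knockout kidney, at log2 ratios to the pool of -2.17, -2.74, -2.81 and -2.33 in mice 1 to 4. The mean was -2.51 (SE 0.16, n = 4 mice), 5.71-fold lower, at an adjusted p of 2.17e-05 in limma (Benjamini-Hochberg over all genes tested). The labels name the RNA of each channel and not the numerator of the ratio. Channel 1 was taken as the numerator, a likely direction, since Slc15a2 is then lower in knockout kidney on all 16 arrays. Under the opposite reading every "higher" and "lower" below would be exchanged, with the same sizes and p-values. Between 10134 and 18400 of 20205 probes had a value on an array. Precision is limited by having 4 mice and 16 arrays. Array 3 of mouse 3 and array 1 of mouse 4, both with knockout RNA in channel 2, had the highest correlation of any pair. It was r = 0.62 over 10336 probes, which are not independent replicates, above the highest within a mouse (0.53). Arrays of the same orientation had a median r of 0.25 within a mouse and 0.17 between mice. Those of opposite orientation had medians of 0.11 within a mouse and 0.03 between mice.

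Of the 58 genes, 36 had a probe annotated to them alone, and 30 had values in both dye orientations of every mouse. The 22 genes without such a probe were Gatm, Arg2, Amt, Gcsh, Bhmt2, Pipox, Agxt, Agxt2, Bcat1, Bcat2, Bckdhb, Dbt, Mccc1, Hibch, Hibadh, Aldh6a1, Ddc, Kynu, Kmo, Aldh4a1, Pycr1 and Ddo. The first enzyme of creatine synthesis, the glycine cleavage partners of Gldc and the valine enzymes Hibch, Hibadh and Aldh6a1 were therefore not analysed here. Another 6 genes had a probe that lacked a value in at least 1 orientation of a mouse and were not tested. Among these, the alanine aminotransferase Gpt had values on 14 arrays, between -0.33 and 0.27 with a median of 0.01. The asparagine synthetase Asns had values on 8 arrays of 3 mice, between -1.04 and 0.85 with a median of -0.08. Bhmt, Psat1, Mccc2 and Got1 had values on 8, 9, 9 and 6 arrays, with medians of 0.08, 0.11, -0.01 and 0.02.

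No amino acid enzyme gene passed an adjusted p of 0.05 in limma, against 0.21% of all genes tested, and 0 of 30 were called higher, against 0.0646%. At an unadjusted p under 0.05 there were 5 of 30 (16.7%, beside 16.8% of all genes), with 4 of them higher (13.3%, beside 6.8%) and Sardh alone lower (3.33%, beside 10.0%). The 4 higher ones were Hpd, Gldc, Bckdha and Prodh2. The mean log2 ratios lay between -0.36 (Sardh) and 0.38 (Gamt), and 20 of 30 were positive (66.7%, beside 48.2% of all genes). Their median was 0.07, beside a median of 0.00 over all genes. With knockout RNA in channel 1 alone 25 of 30 were positive, and in channel 2 alone 17 of 30. On arrays 1 and 2 alone 14 of 24 were positive, and on arrays 3 and 4 alone 19 of 23. The share of positive ratios over all genes was not worked out in these settings. Mean ratios of 0.25 or more in size were found in Sardh, Hpd, Gldc and Gamt (13.3%, beside 2.57% of all genes). Without mouse 3 this held for 2 of them, Sardh and Gldc (beside 1.84% of all genes), with Hpd at 0.20 and Gamt at 0.15. In 4 enzyme genes the 4 mice shared 1 sign (13.3%, beside 25.7% of all genes): Hpd and Prodh2 were positive, and Sardh and Psph negative. Single arrays went the other way in Psph (6 of 14 positive), Hpd (5 of 16 negative) and Prodh2 (3 of 12 negative). Because these are whole-kidney samples, fewer cells of a type and less RNA per cell cannot be told apart in any of these ratios.

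**Figure D1:**
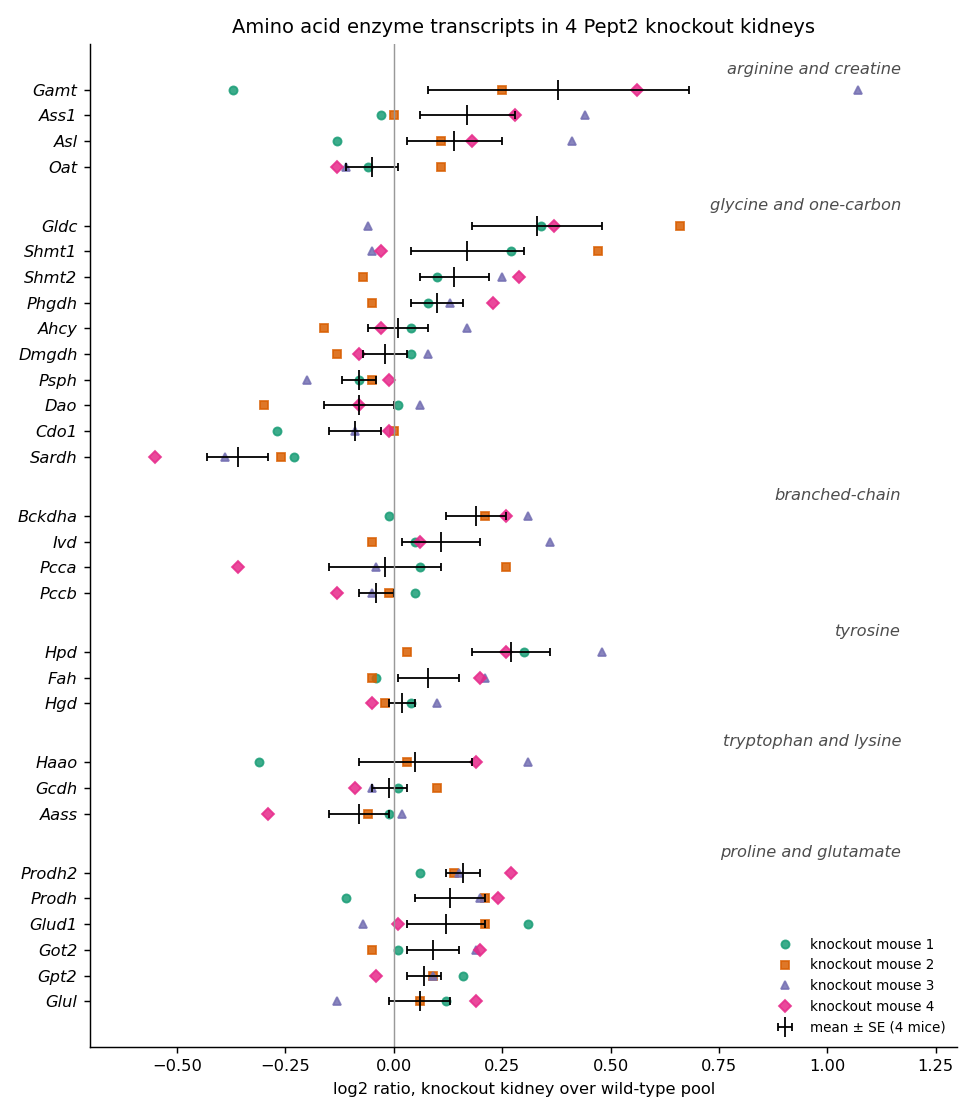
Log2 ratio of knockout kidney over the wild-type pool for the 30 tested enzyme genes, grouped by pathway. Coloured symbols are the 4 knockout mice, and the black bar is their mean ± SE. All 4 symbols of Sardh lie between -0.55 and -0.23, while those of Gamt run from -0.37 to 1.07.

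Sardh, the mitochondrial sarcosine dehydrogenase that turns sarcosine into glycine and passes a one-carbon unit to folate, had the smallest p of all the enzymes. Its log2 ratios were -0.23, -0.26, -0.39 and -0.55 in mice 1 to 4. Its mean was -0.36 (SE 0.07, 1.28-fold lower in knockout kidney), with an adjusted p of 0.0891 in limma, which missed the threshold and lay within the 0.355% of genes under 0.1. Every one of its 16 arrays was negative, from -0.77 to -0.08, a pattern found in 0.905% of genes (the same sign on every array with a value) and in no other enzyme of the list. The orientations gave the same mean, -0.36 with knockout RNA in channel 1 and -0.36 in channel 2. Sardh was measured by 2 probes that tracked each other from mouse to mouse. The first stood at -0.25, -0.30, -0.36 and -0.49 and the second at -0.22, -0.22, -0.42 and -0.60. Among the 2681 genes measured on all arrays, where fewer genes were tested, the adjusted p of Sardh was 0.0392. Across all alternatives tried the ratio lay between -0.41 and -0.29.

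Dmgdh, the dehydrogenase that acts just before Sardh by turning dimethylglycine into sarcosine, stood at -0.02 (SE 0.05). Its mice were at 0.04, -0.13, 0.08 and -0.08, on both sides of the pool.

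Hpd, the dioxygenase of the second step of tyrosine breakdown, had the second smallest p. Its ratios were 0.30, 0.03, 0.48 and 0.26 in mice 1 to 4, all positive, with a mean of 0.27 (SE 0.09, 1.2-fold higher in knockout kidney, adjusted p = 0.161). The mean came from one dye orientation. It was 0.51 with knockout RNA in channel 2 and 0.02 with knockout RNA in channel 1, and single arrays ran from -0.26 to 1.24. The orientation difference of Hpd did not pass an adjusted p of 0.05 (0.159), nor did that of any other gene tested, while 19.5% of all genes were at an unadjusted p under 0.05 for it. The later tyrosine enzymes were closer to the pool. Fah, the last step of the pathway, stood at 0.08 (SE 0.07). Hgd, the homogentisate dioxygenase between them, stood at 0.02 (SE 0.03). Hgd lies 10 protein-coding genes from Slc15a2 on chromosome 16 in the gene order of GRCm38.p6, and its mice were at 0.04, -0.02, 0.10 and -0.05.

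**Figure D2:**
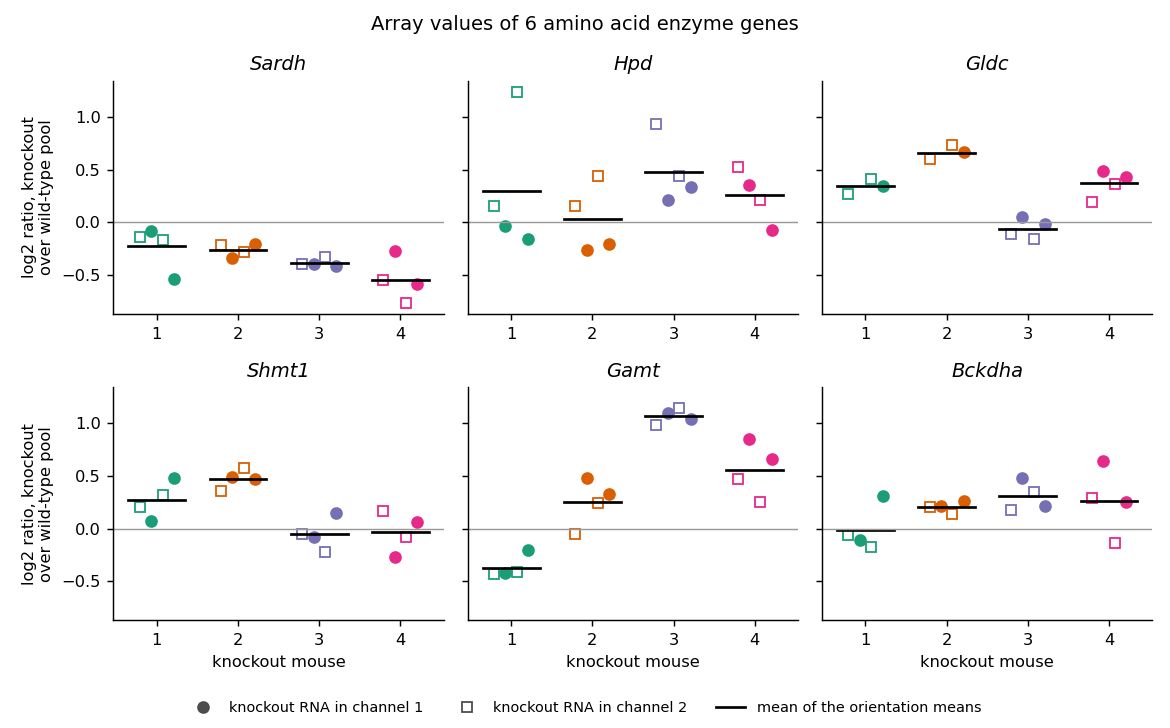
Log2 ratio of knockout kidney over the wild-type pool on each of the 4 arrays of each knockout mouse, for 6 enzyme genes. Filled circles have knockout RNA in channel 1, open squares in channel 2, and the line is the value of the mouse. All Sardh arrays lie below 0, Hpd splits by orientation, and Gldc, Shmt1 and Gamt differ between mice.

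The other comparison asked which of these transcripts differed among the knockout mice themselves, where the shared pool cancels. Of the 30 enzyme genes 3 passed the moderated F test of limma at an adjusted p of 0.05 (10.0%, beside 2.54% of all genes), namely Gldc, Shmt1 and Gamt. At an unadjusted p under 0.05 there were 13 (43.3%, beside 13.6%). Among genes with values on all arrays, 4 of 20 enzyme genes passed the F test at an adjusted p of 0.05, beside 6.34% of 2681 genes. These were Gamt, Asl, Shmt1 and Haao. The median SD between mice was 0.142 over the enzyme genes and 0.0993 over all genes. Over marker genes it was 0.113 for proximal tubule (10 genes), 0.12 for endothelium (4), 0.143 for both collecting duct and leukocytes (4 each), 0.18 for smooth muscle and fibroblasts (8), 0.202 for adipose tissue (2) and 0.208 for the loop of Henle and distal tubule (2). The markers Umod of the thick ascending limb, Col1a1 of fibroblasts and Fabp4 of adipocytes also passed the F test between mice (adjusted p = 0.0125, 0.042 and 0.0108). They were 1 of 2 tested loop of Henle and distal tubule markers, 1 of 8 smooth muscle and fibroblast markers and 1 of 2 adipose markers. No marker of the other cell types passed the F test, and 2.54% of all genes did. The part of these cell types in the spread of the enzyme genes was not tested. The arrays of a mouse are technical replicates, so the F test compares these 4 animals only.

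**Figure D3:**
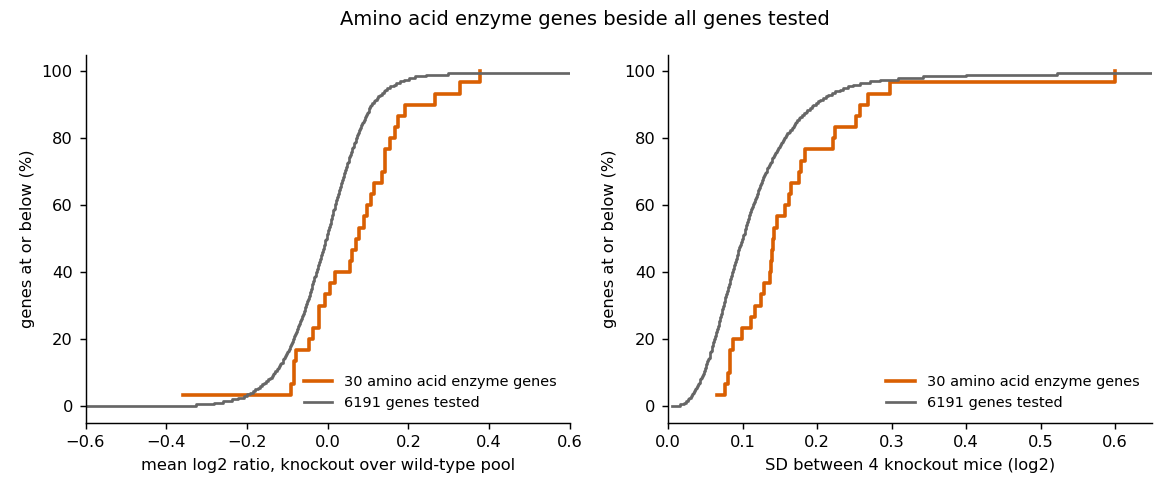
Cumulative share of genes, in percent, by mean log2 ratio of knockout over pool (left) and by SD of that ratio between the 4 knockout mice (right), for the 30 enzyme genes and for all 6191 genes tested. The curve of the enzyme genes lies to the right over most of both panels and crosses the other near the ends, with medians of 0.07 against 0.00 for the ratio and 0.142 against 0.0993 for the SD.

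Gldc and Shmt1 both act on glycine. Gldc is the glycine decarboxylase of the mitochondrial cleavage system, and Shmt1 is the cytosolic enzyme that exchanges serine and glycine while loading folate. The 250 bases upstream of the annotated starts of both genes and of Sardh are shown because the first 2 are the glycine genes past the F test and Sardh had the smallest p against the pool. The sequences are from RefSeq (GRCm38.p6), 5′ to 3′ on the minus strand, at chr19:30175442-30175691 for Gldc, chr11:60811266-60811515 for Shmt1 and chr2:27247304-27247553 for Sardh. Capitals mark matches on either strand to any of 7 short motifs, which are spelled out after the sequences.
Gldc: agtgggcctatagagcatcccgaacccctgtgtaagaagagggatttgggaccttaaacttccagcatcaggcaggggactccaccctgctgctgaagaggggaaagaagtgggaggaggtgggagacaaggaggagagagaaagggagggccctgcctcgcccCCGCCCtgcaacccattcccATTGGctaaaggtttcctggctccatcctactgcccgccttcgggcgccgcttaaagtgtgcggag
Shmt1: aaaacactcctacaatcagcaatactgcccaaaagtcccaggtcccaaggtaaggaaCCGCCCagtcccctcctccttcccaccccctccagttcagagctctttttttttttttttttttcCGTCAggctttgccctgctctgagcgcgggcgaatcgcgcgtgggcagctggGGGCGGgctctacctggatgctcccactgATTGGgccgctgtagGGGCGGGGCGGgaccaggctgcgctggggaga
Sardh: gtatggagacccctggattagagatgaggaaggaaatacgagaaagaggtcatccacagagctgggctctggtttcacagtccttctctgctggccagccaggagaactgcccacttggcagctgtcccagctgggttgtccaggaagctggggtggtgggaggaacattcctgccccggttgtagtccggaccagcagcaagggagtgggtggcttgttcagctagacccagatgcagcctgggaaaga

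The windows of Gldc and Shmt1 each held 1 CCAAT box (CCAAT), which 33.8% of all 32851 such windows hold. Gldc had 1 GC box (GGGCGG) and Shmt1 had 4, a pair of which overlap by 1 base, and 32.7% of all windows hold at least 1. Shmt1 also had 1 core of the cAMP response element (TGACG, in 17.8% of windows). The TATA box TATAAA, the E-box CACGTG, the HNF4 core CAAAGTCCA and the steroid receptor motif TGTTCT were in 12.4%, 6.02%, 0.384% and 16.1% of all windows and in none of these 3. The Sardh window held no match to any of the 7 motifs. These matches describe the letters in the windows only.

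Gldc stood at 0.34, 0.66, -0.06 and 0.37 in mice 1 to 4. The 3 arrays of mouse 2 with a value ran from 0.60 to 0.73, above every array of the other mice, and mouse 3 was at the level of the pool, from -0.16 to 0.05. The F test between mice gave an adjusted p of 0.00307. The mean against the pool was 0.33 (SE 0.15, adjusted p = 0.179). Without mouse 2 the adjusted p of the F test was 0.0839, and without mouse 3 it was 0.326.

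Shmt1 stood at 0.27, 0.47, -0.05 and -0.03 in mice 1 to 4. The arrays of mouse 2 ran from 0.36 to 0.58, above all arrays of mouse 3 (-0.22 to 0.15) and of mouse 4 (-0.27 to 0.17). The F test gave an adjusted p of 0.0336, and it missed the threshold without any 1 of the 4 mice (0.0528 to 0.447). The mean against the pool was 0.17 (SE 0.13, adjusted p = 0.357). Its mitochondrial counterpart Shmt2 had another order of mice, at 0.10, -0.07, 0.25 and 0.29, with a mean of 0.14 (SE 0.08). In mouse 4 the Shmt2 value came from arrays 1 and 2, which averaged 0.62, while arrays 3 and 4 of the same RNA averaged -0.05. Glud1, the mitochondrial glutamate dehydrogenase, was like Shmt1 above the pool in mice 1 and 2 (0.31 and 0.21). It was near the pool in mice 3 and 4 (-0.07 and 0.01) and did not pass the F test (adjusted p = 0.126). Its first probe stood at 0.40, 0.25, 0.00 and 0.07 in mice 1 to 4, with a mean of 0.18. Its second stood at 0.22, 0.17, -0.14 and -0.06, with a mean of 0.05.

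The remaining genes of glycine and one-carbon metabolism differed little from the pool. The first enzyme of serine synthesis, Phgdh, stood at 0.08, -0.05, 0.13 and 0.23 in mice 1 to 4, with a mean of 0.10 (SE 0.06). The last, the phosphatase Psph, stood at -0.08 (SE 0.04), though its single arrays ran from -0.86 to 0.30. Ahcy, which hydrolyses S-adenosylhomocysteine, stood at 0.01 (SE 0.07). The D-amino acid oxidase Dao stood at -0.08 (SE 0.08), with mouse 2 lowest at -0.30. Cdo1, the dioxygenase that starts cysteine oxidation to taurine and sulfate, stood at -0.09 (SE 0.06), and mouse 1 was lowest at -0.27. Of the 10 tested genes of this group 5 were positive and 5 negative, with a median of -0.01.

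Gamt, which methylates guanidinoacetate to creatine, had the widest spread of the list. Its ratios were -0.37, 0.25, 1.07 and 0.56 in mice 1 to 4, and the F test gave an adjusted p of 2.91e-06. The arrays of mouse 3 ran from 0.98 to 1.15 and those of mouse 1 from -0.43 to -0.20. The mean against the pool was 0.38 (SE 0.30, adjusted p = 0.336). The probe of Gamt shared this profile with 27 other probes, 9 of them with a gene name, whose array values had an r of 0.91 to 0.99 with it over at least 12 arrays of these 4 mice. Their medians were -0.45, 0.27, 1.06 and 0.64 in mice 1 to 4. Gamt had no other probe, so whether its values are those of the Gamt transcript was not tested.

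Ass1 and Asl, which carry out the consecutive steps of arginine synthesis from citrulline, had the same order of mice. Ass1 stood at -0.03, 0.00, 0.44 and 0.28 in mice 1 to 4, with a mean of 0.17 (SE 0.11, adjusted p = 0.313). Asl stood at -0.13, 0.11, 0.41 and 0.18, with a mean of 0.14 (SE 0.11, adjusted p = 0.376). Both were highest in mouse 3 and lowest in mouse 1, as was Gamt. This order was found in 5 of 30 enzyme genes (16.7%, beside 11.7% of all genes), the others being Bckdha and Haao. Asl came closest to passing the F test (adjusted p = 0.0667), and Ass1 was at 0.159. Oat, the ornithine aminotransferase that links arginine to proline and glutamate, stood at -0.05 (SE 0.06), with mouse 2 alone above the pool at 0.11.

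Among branched-chain enzymes, Bckdha, the E1 alpha subunit of the dehydrogenase complex that commits these amino acids to oxidation, stood at -0.01, 0.21, 0.31 and 0.26 in mice 1 to 4. Its mean was 0.19 (SE 0.07, adjusted p = 0.185), and mouse 1 was at the level of the pool while the other mice were above it. The mean of Bckdha was 0.28 with knockout RNA in channel 1 and 0.10 with it in channel 2. In mouse 4, Bckdha averaged 0.46 on arrays 1 and 2 and 0.06 on arrays 3 and 4. Ivd, the isovaleryl-CoA dehydrogenase of leucine breakdown, stood at 0.11 (SE 0.09), with mouse 3 highest at 0.36. The subunits of propionyl-CoA carboxylase, which form 1 enzyme, were both near the pool. Pcca stood at -0.02 (SE 0.13), with 0.26 in mouse 2 and -0.36 in mouse 4, and had values on 11 arrays. Pccb stood at -0.04 (SE 0.04), between -0.13 and 0.05.

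All 6 tested genes of proline and glutamate metabolism had a positive mean ratio, beside 48.2% of all genes. Their median was 0.10 and their range 0.06 to 0.16, and none passed the threshold. The hydroxyproline dehydrogenase Prodh2 stood at 0.06, 0.14, 0.15 and 0.27 in mice 1 to 4, with a mean of 0.16 (SE 0.04, adjusted p = 0.187) from 12 arrays. Prodh, the proline dehydrogenase, stood at -0.11, 0.21, 0.20 and 0.24, with a mean of 0.13 (SE 0.08, adjusted p = 0.334), and mouse 1 was apart from the others. The mean of Prodh was 0.25 with knockout RNA in channel 1 and 0.02 with it in channel 2. In mouse 4, Prodh averaged 0.47 on arrays 1 and 2 and 0.02 on arrays 3 and 4. Prodh is the other tested gene of the list on chromosome 16, 194 protein-coding genes from Slc15a2. Glud1 had a mean of 0.12 (SE 0.09), the mitochondrial aspartate aminotransferase Got2 of 0.09 (SE 0.06) and the mitochondrial alanine aminotransferase Gpt2 of 0.07 (SE 0.04).

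Glul, the glutamine synthetase, had a mean of 0.06 (SE 0.07), but its 2 probes disagreed, with means of -0.08 and 0.20. One stood at 0.12, 0.12, -0.34 and -0.21 in mice 1 to 4 and the other at 0.12, 0.00, 0.08 and 0.60. The first passed the F test between mice at probe level (adjusted p = 0.0381) and the second did not (0.2). In mouse 4 the gene averaged 0.36 on arrays 1 and 2, against 0.02 on arrays 3 and 4.

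In tryptophan and lysine breakdown, Haao, the dioxygenase that leads to quinolinate, stood at -0.31, 0.03, 0.31 and 0.19 in mice 1 to 4, with a mean of 0.05 (SE 0.13). Its probes had the same order at the low end, with -0.38 and -0.24 in mouse 1, and differed in size at the high end, with 0.13 and 0.49 in mouse 3. Probe 2 alone passed the F test at probe level (adjusted p = 0.0231), and the gene did not (0.0861). Aass, the first enzyme of lysine breakdown by the saccharopine route, stood at -0.08 (SE 0.07), with -0.29 in mouse 4. Gcdh, the glutaryl-CoA dehydrogenase downstream, stood at -0.01 (SE 0.04).

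**Figure D4:**
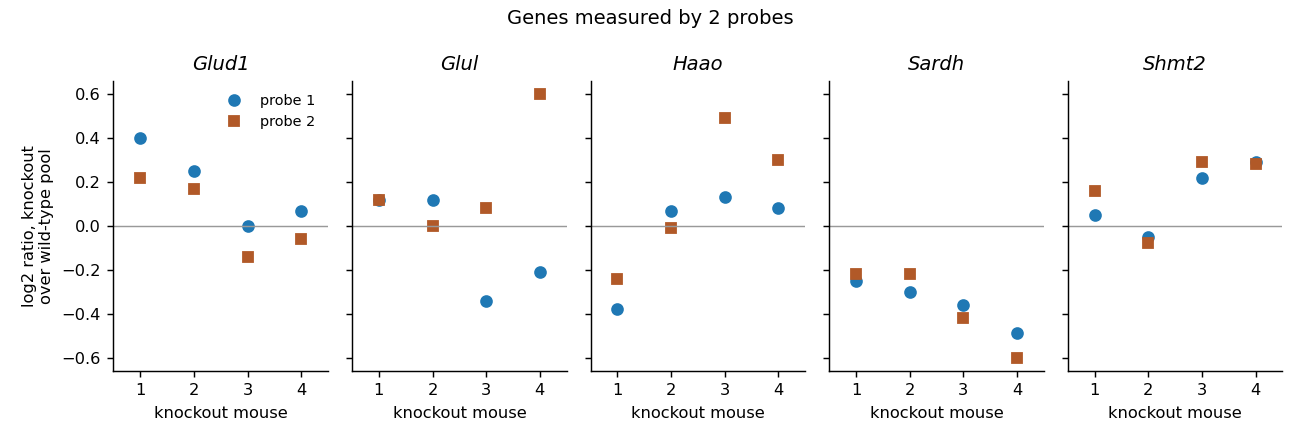
Log2 ratio of knockout kidney over the wild-type pool in each knockout mouse for the 5 enzyme genes measured by 2 probes, with circles for probe 1 and squares for probe 2. The probes of Sardh and Shmt2 lie close together in every mouse, and those of Glul part in mice 3 and 4 (-0.34 and 0.08, -0.21 and 0.60).

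Both mice 3 and 4 were above both mice 1 and 2 in 11 of 30 enzyme genes (36.7%, beside 24.8% of all genes), among them Ass1, Asl, Shmt2, Fah, Ivd and Got2. The opposite order was found in 7 (23.3%, beside 27.6%), among them Shmt1, Glud1, Pcca and Pccb.

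By pathway and mouse, arginine and creatine genes had the widest medians, at -0.09, 0.11, 0.42 and 0.23 in mice 1 to 4 over 4 genes. Tyrosine genes had medians of 0.04, -0.02, 0.21 and 0.20 over 3 genes, and proline and glutamate genes 0.09, 0.11, 0.12 and 0.20 over 6. Glycine and one-carbon genes had medians between -0.06 and 0.04 over 10 genes, which do not show the larger ratios of Gldc, Shmt1 and Sardh. Branched-chain genes were at 0.05, 0.10, 0.13 and -0.04 over 4 genes, and tryptophan and lysine genes at -0.01, 0.03, 0.02 and -0.09 over 3.

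Of 97 further genes of the same pathways, 35 were tested, 15 with a positive and 20 with a negative ratio and a median of -0.01. One of them passed the threshold against the pool, Odc1, the ornithine decarboxylase that starts polyamine synthesis, against 0.145% of all genes called lower. Odc1 stood at -0.77, -0.58, -0.56 and -0.28 in mice 1 to 4, with a mean of -0.55 (SE 0.10, adjusted p = 0.0304). It missed the threshold without mouse 1, 2 or 3, at adjusted p = 0.0829, 0.0821 and 0.0529, and under 6 other alternatives (0.0591 to 0.128). Of the 35 further genes 1 passed the F test between mice, Sat1, which acetylates polyamines (adjusted p = 0.0215), beside 2.54% of all genes. Sat1 stood at -0.09, 0.10, -0.33 and -0.32 in mice 1 to 4, with a mean of -0.16 (SE 0.10). The creatine transporter Slc6a8 stood at 0.17 (SE 0.04) and the asparaginase Aspg at 0.20 (SE 0.06), both positive in all 4 mice, with adjusted p = 0.178 and 0.173. Chdh, the choline dehydrogenase that feeds betaine and so the dimethylglycine used by Dmgdh, stood at -0.15 (SE 0.04, negative in all 4 mice, adjusted p = 0.186), and the sulfite oxidase Suox at 0.16 (SE 0.06, adjusted p = 0.208). The short-chain acyl-CoA dehydrogenase Acads stood at 0.10, the methylmalonyl-CoA mutase Mmut at -0.09 and the tetrahydrobiopterin recycling enzyme Pcbd1 at -0.07. Gstz1 of tyrosine breakdown, Ido2 and Crym of tryptophan and lysine metabolism and the prolyl hydroxylase subunit P4ha2 lay between -0.05 and 0.03.

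Markers of kidney cell types were given the same reading. Of 14 proximal tubule markers 10 were tested, 6 positive and 4 negative, with a median of 0.03 and mouse medians of 0.10, 0.03, 0.07 and -0.01, and Slc22a8 passed the threshold (0.48, adjusted p = 0.0149). Collecting duct markers were positive in 4 of 4 (median 0.12), endothelial markers negative in 4 of 4 (median -0.12), and smooth muscle and fibroblast markers negative in 7 of 8 (median -0.09). Leukocyte markers were positive in 4 of 4 (median 0.10). Of the loop of Henle and distal tubule and of adipose tissue 2 markers each were tested (medians -0.10 and -0.14), and of podocytes, erythroid cells and adrenal 1 each (-0.19, 0.07 and 0.03). None of these other markers passed the threshold, and the part of cell composition in the enzyme ratios was not tested.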

How the data were processed

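Per the labels, RNA was labelled indirectly with Cy3 or Cy5, slides went through a GenePix 4000A scanner and GenePix Pro 3.0, and the authors subtracted background and set the median ratio of each array to 1. The deposited values are log2 ratios, 1 per probe and array. The base was worked out from the values (46.5% of distances between repeated values matched log2 of fractions of whole numbers, and 0.0% for natural and decimal logarithms). No source used here states which filter left blank cells.

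Signs were turned to knockout over pool, reading the values as channel 1 over channel 2, and the array median was subtracted. Arrays were averaged within orientation and then over both orientations of a mouse. A probe was tested if every mouse had a value in both orientations, and probes naming a single gene were averaged per gene (11723 of 20205 probes name 1 gene, 806 several and 7676 none, and 11590 matched the gene table of GRCm38.p6). The ratio against 0 was tested with limma 3.58.1 in R 4.3.3 (lmFit, eBayes, two-sided, Benjamini-Hochberg over 6191 genes). Variation among wild-type kidneys does not enter this test, and any error of the pool is common to all mice. SE is the SD over the 4 mice divided by the root of their number. Mice were compared by a moderated F test at array level with a dye term. On simulated data with the real blanks, 100 of 100 genes changed by 0.5 against the pool were called, with 7 calls among 5991 unchanged genes, and 67 of 100 genes changed by 0.5 in 1 mouse, with 4 among 5991. The simulation held no error of the pool and no dye effect in these runs, and it gave every gene the same spread. For the F test it held no spread between mice apart from the change. Real SDs between mice ran from 0.0049 to 2.32 over all genes. The simulated counts therefore do not tell how often such a change would be missed in an enzyme gene.

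The enzyme genes and lists were chosen with earlier results of these data known, and no p was adjusted over a list alone. Every tested enzyme gene is named, with Slc15a2, and of the further pathway genes those past the threshold in either test and the 2 of each group with the smallest p. Mouse values are given for the 12 enzyme genes with the smallest p and those past the F test, and for others where mice, probes or arrays differed, chosen after their values were seen.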

Additional observations from a re-analysis of the deposited data

Results flagged for a closer look

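Prodh in mouse 1 stood at -0.11, while the other knockout mice lay between 0.20 and 0.24. The Prodh arrays of mouse 1 were at -0.19 and -0.36 with knockout RNA in channel 2, and at 0.03 and 0.07 in channel 1. The gap to the nearest mouse was 0.879 of the whole range, above Dixon's 95% critical value for 4 samples. Chance flags about 1 in 20 groups, and this was the one flag among 30 enzyme genes.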

How the results depend on the processing

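Over 17 alternatives no enzyme gene passed an adjusted p of 0.05 except in 2 of them. With the 16 arrays as measurements and the mouse as a random block, 4 passed (Sardh, Gldc, Bckdha and Hpd) and 13 were at an unadjusted p under 0.05 (beside 23.5% of all genes). The within-mouse correlation was put at 0.053 there, so technical arrays counted nearly as animals and 401 of all genes passed. Among probes with values on all arrays, 1 of 20 passed (Sardh, beside 40 of 2681 genes), 3 were at an unadjusted p under 0.05 (beside 23.8% of all genes), and the median of the list was 0.11. With knockout RNA in channel 1 only, 9 were at an unadjusted p under 0.05 (beside 18.6% of all genes) and the median was 0.11, and with knockout RNA in channel 2 only the median was 0.01. Leaving out 1 mouse gave 0 genes past the adjusted threshold, 4 to 10 at an unadjusted p under 0.05, 18 to 22 positive ratios and a median of 0.04 to 0.08. The highest of these counts, 10 and 8, came without mouse 1 and without mouse 2, beside 17.2% and 18.5% of all genes. The F test passed for 5 enzyme genes with the probe of most values per gene (beside 2.52% of all genes), and for 1 to 3 with a mouse left out (beside 0.727% to 2.18%). Without mouse 2 or without mouse 3, Gamt alone passed (beside 1.21% and 0.937%). Asl passed with no centring, without mouse 4 and among probes on all arrays. In these settings 4 of 30, 3 of 30 and 4 of 20 enzyme genes passed, beside 2.6%, 2.18% and 6.34% of all genes. Without the 2 arrays of different mice that correlated most, chosen after seeing the data, Gamt, Shmt1 and Gldc passed. They were 3 of 29 enzyme genes (beside 1.75% of all genes), with Shmt1 at an adjusted p of 0.0495. Without the probes that share the profile of Gamt, also chosen after seeing the data, 2 of 29 passed (beside 2.33% of all genes). Of 30 enzyme genes 19 kept the sign of their mean in every alternative in which they were tested. The other 11 were Ahcy, Hgd, Dmgdh, Gcdh, Pcca, Pccb, Oat, Haao, Glul, Shmt2 and Phgdh. Some alternatives tested fewer genes, with 24 on arrays 1 and 2 only, 23 on arrays 3 and 4 only and 20 with values on all arrays. Dao and Prodh2, among the 19, were tested in none of these. With knockout RNA in channel 1 only Pccb was at 0.11, in channel 2 only Hgd and Ahcy were at -0.09 each, with the probe of most values Glul was at -0.08, and without mouse 4 Pcca was at 0.09. Shmt2 turned to -0.01 on arrays 3 and 4 only, Phgdh to -0.00 with knockout RNA in channel 2 only, Ido2 to 0.03 on arrays 1 and 2 only and Pcbd1 to 0.03 with knockout RNA in channel 1 only. The causes were not tested. Odc1 also missed the threshold on either orientation alone (adjusted p = 0.128 in channel 1 and 0.0593 in channel 2), with a value on any array of every mouse (0.124), with arrays scaled to one spread (0.0598), on arrays 3 and 4 only (0.0591) and without the 2 arrays that correlated most (0.0752). Without intensities, signal over background could not be weighed.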

Other observations

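By compartment, a grouping made after the values were seen, 9 of 16 tested mitochondrial enzyme genes had a positive ratio (median 0.08), and 11 of 14 other enzyme genes did (median 0.07). The mitochondrial genes held both Gldc at 0.33 and Sardh at -0.36. Mouse medians of the mitochondrial genes were 0.04, 0.09, 0.05 and -0.02, and those of the other genes were -0.01, 0.00, 0.15 and 0.19.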
